A study of Mus musculus with 31 samples.

Results

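Chemokine ligands are small secreted or membrane-bound proteins that guide leukocytes along gradients. Their members were taken as every row of the deposited count table whose symbol begins with Ccl, Cxcl, Cx3cl or Xcl followed by digits, without the 2 rows marked as pseudogenes by the suffix -ps. This gave 46 rows with 40 distinct symbols, of 55487 rows in all. The low-count filter passed 26 of the 46, and 20 were not tested.

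The data are bulk mRNA sequencing of the kidneys of 31 male B6-background mice, 1 library a mouse, so that p-values measure the spread between animals. By label the mice were heterozygous (HET) or wild type (WT) at Nbl1, the gene of a secreted inhibitor of BMP signals; no source used here gives the kind of allele. Cisplatin, a platinum drug that damages the kidney tubule, or phosphate-buffered saline (PBS) was given over 4 weeks from 8 weeks of age. Kidneys were taken 3 days after treatment at a stated age of 11 weeks, an age that the stated start and length of treatment exceed. The groups were HET cisplatin (n = 8), HET PBS (n = 7), WT cisplatin (n = 8) and WT PBS (n = 8). The design addresses the kidney response to cisplatin and whether the Nbl1 genotype alters it. No source used here gives the cisplatin dose.

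Chemokine ligands signal through G protein-coupled receptors on leukocytes and on some tissue cells. CXC ligands with a Glu-Leu-Arg motif act through CXCR2 and attract neutrophils, the interferon-induced CXC ligands act through CXCR3 on T and NK cells, and many CC ligands attract monocytes and macrophages. In injured kidney, tubule cells, endothelium and resident macrophages are all known sources of ligands, while CXCL12 and CX3CL1 are made there at rest.

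Libraries held 24650858 to 37301170 counts. Nbl1, the targeted gene, stood at 0.861 to 13.9 CPM (counts scaled by TMM factors to a library of 1000000) in HET cisplatin kidneys against 10.7 to 26.2 CPM in WT cisplatin kidneys, and at 0.106 to 4.2 CPM in HET PBS kidneys against 3.71 to 7.9 CPM in WT PBS kidneys. The libraries labelled HET cisplatin 3 and 4 and HET PBS 1 and 6 held at most 1.08 CPM of Nbl1, and the library labelled WT PBS 6 held 22 counts of its neighbour Htr6, which had at most 2 in any other WT library. These 5 libraries go against their label at this locus, and results that change without them are given with that value. The library labelled HET cisplatin 6 held 31.6 CPM of Havcr1, a marker of injured tubule, the lowest level of a group with a median of 285 CPM. Markers of proximal tubule, the main cell type of kidney cortex, summed to over 600 CPM in every library, with medians of 2520 CPM in HET cisplatin kidneys against 13800 CPM in HET PBS kidneys and of 1650 CPM in WT cisplatin kidneys against 14300 CPM in WT PBS kidneys. These are bulk samples, in which fewer cells of a type and less RNA per cell cannot be told apart.

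Promoter windows of the ligands whose values frame the results are shown first: the CXCR2 ligands Cxcl1, Cxcl2 and Cxcl3, the CCR6 ligand Ccl20, and the neighbours Cxcl9 and Cxcl10, which differed in their response. Each window holds 250 bases before and 50 after the RefSeq gene start on the gene's strand (GRCm38.p6). Capitals mark matches to the NF-kB consensus on either strand and, in Cxcl9 and Cxcl10, also to an interferon-response element (GAAA, any 2 bases, GAAA). The windows lie at chr5:90890995-90891294 (Cxcl1, plus strand), chr5:90903649-90903948 (Cxcl2, plus), chr5:90785851-90786150 (Cxcl3, plus), chr1:83116516-83116815 (Ccl20, plus), chr5:92328030-92328329 (Cxcl9, minus) and chr5:92348840-92349139 (Cxcl10, minus).
Cxcl1: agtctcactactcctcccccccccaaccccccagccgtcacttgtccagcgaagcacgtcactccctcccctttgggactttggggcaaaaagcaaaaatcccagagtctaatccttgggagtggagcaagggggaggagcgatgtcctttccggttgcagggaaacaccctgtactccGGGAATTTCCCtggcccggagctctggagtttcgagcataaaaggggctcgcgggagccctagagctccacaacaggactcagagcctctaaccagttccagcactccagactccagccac
Cxcl2: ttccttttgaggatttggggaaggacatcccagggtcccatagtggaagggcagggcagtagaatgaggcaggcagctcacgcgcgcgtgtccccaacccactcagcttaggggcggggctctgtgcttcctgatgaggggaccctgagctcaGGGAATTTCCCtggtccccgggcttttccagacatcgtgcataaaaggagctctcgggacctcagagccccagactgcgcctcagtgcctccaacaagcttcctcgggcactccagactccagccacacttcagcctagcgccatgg
Cxcl3: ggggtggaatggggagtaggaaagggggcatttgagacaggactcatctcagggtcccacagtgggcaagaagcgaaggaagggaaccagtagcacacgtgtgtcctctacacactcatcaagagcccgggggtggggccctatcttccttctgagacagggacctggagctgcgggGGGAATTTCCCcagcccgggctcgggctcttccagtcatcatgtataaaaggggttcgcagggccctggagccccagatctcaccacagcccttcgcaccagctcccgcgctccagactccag
Ccl20: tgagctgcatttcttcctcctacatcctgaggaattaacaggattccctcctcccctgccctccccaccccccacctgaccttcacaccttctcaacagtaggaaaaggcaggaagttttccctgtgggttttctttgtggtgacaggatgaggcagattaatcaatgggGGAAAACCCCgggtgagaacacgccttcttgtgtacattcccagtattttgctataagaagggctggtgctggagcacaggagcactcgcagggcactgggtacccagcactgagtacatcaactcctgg
Cxcl9: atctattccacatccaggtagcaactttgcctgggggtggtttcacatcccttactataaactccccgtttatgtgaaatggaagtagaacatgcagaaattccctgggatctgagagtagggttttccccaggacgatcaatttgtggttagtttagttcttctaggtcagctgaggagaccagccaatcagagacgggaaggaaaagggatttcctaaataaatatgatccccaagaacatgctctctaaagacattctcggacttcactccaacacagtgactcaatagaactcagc
Cxcl10: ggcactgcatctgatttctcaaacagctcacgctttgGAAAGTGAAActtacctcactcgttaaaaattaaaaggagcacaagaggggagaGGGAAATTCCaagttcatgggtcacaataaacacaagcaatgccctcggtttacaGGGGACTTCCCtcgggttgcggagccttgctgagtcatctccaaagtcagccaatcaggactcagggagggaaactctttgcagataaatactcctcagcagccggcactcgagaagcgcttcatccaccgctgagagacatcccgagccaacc

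The same 11 bases, GGGAATTTCCC, stood in the windows of Cxcl1 (positions -71 to -61, counted from 0 at the start), Cxcl2 (-97 to -87) and Cxcl3 (-73 to -63). Ccl20 held 1 match at -80 to -71, and Cxcl10 held GAAAGTGAAA at -213 to -204 beside 2 stretches of NF-kB matches. Neither motif has a match in the Cxcl9 window. Of 34 windows found for 28 ligand symbols, 8 held the NF-kB consensus, against 8.46% of 32851 windows of all genes. The interferon-response element stood in 3 ligand windows, against 3.44% of all, and TATAAA stood in 10, against 13.6% of all. The printed windows are a selection. Of the ligands that rose under cisplatin in both genotypes, Cxcl2, Ccl20 and Ccl9 held the NF-kB consensus, and Ccl6, Ccl12 and Ccl17 did not. For Cxcl5, Cxcl16, Cxcl17, Ccl2 and Ccl7, which also rose in both, no window was found. Matches stood as well in Cxcl1, Cxcl10 and Ccl27a, which did not pass, and in Cxcl3 and Ccl1, which were not tested. The part of the motif in the response was not tested. A match describes letters in the window and is not a measured binding site.

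Per length, the ligand with the highest level in every group was Cxcl12, a homeostatic CXC ligand of CXCR4 made by stroma and endothelium. Its median was 40.1 TPM (a length-scaled level that sums to 1000000 in a library, as deposited) in HET cisplatin kidneys against 42.8 TPM in HET PBS kidneys, and 37.5 TPM in WT cisplatin kidneys against 46 TPM in WT PBS kidneys. Cx3cl1, the membrane-bound ligand of CX3CR1, came second in both PBS groups and in HET cisplatin, with median levels of 29.2 TPM in HET cisplatin against 17.5 TPM in HET PBS, and of 26.6 TPM in WT cisplatin against 16.6 TPM in WT PBS. The TPM scale itself lifted most genes under cisplatin, with a median log2 fold change over all tested genes of 0.29 in HET and 0.28 in WT on log2(TPM + 1), against 0.06 with TMM scaling, and with TMM scaling Cx3cl1 did not pass between cisplatin and PBS. Cxcl1 was second in WT cisplatin, at a median level of 30.7 TPM and a range of 8.15 to 63.1 TPM. The ranges of Cxcl12, Cxcl1 and Cx3cl1 overlapped under cisplatin in both genotypes, so their order there is within the spread of the libraries, while under PBS Cxcl12 lay above Cx3cl1 without overlap. Summed over all 46 rows, the ligand level was 104 to 224 TPM (median 196) in HET cisplatin kidneys against 100 to 170 TPM (median 112) in HET PBS kidneys. It was 151 to 225 TPM (median 191) in WT cisplatin kidneys against 108 to 182 TPM (median 115) in WT PBS kidneys. That difference depended on the scale: with TMM scaling the ligand sum was 268 to 430 CPM (median 396) in HET cisplatin kidneys against 335 to 452 CPM (median 376) in HET PBS kidneys, and 306 to 415 CPM (median 367) in WT cisplatin kidneys against 348 to 479 CPM (median 364) in WT PBS kidneys. At a median level under 0.1 TPM stood 17 rows in each cisplatin group and 22 in each PBS group.

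**Figure D1:**
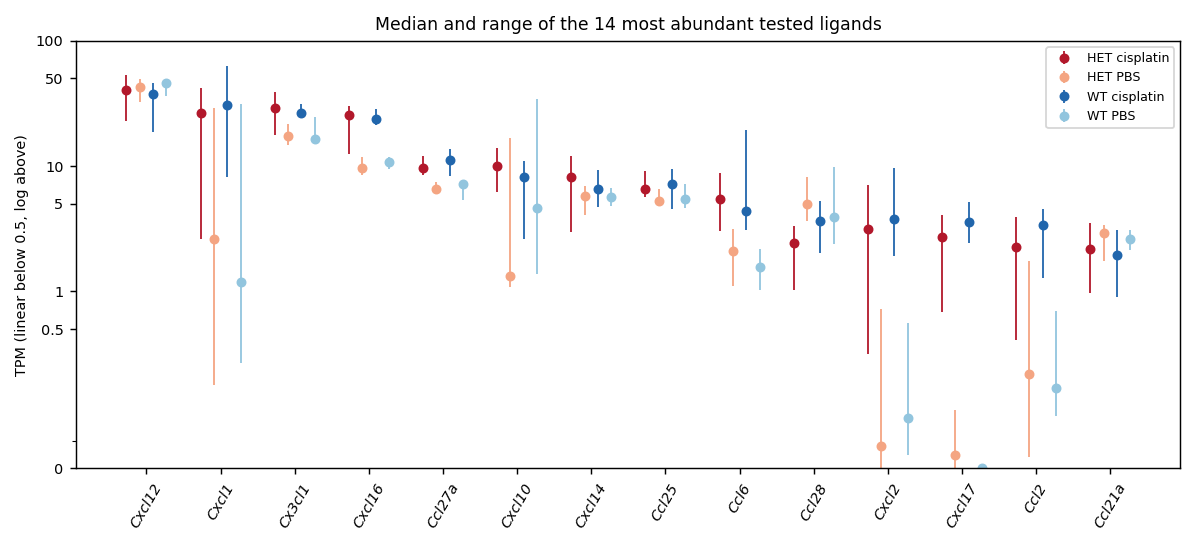
Median (point) and lowest to highest library (bar) of the 14 most abundant tested ligands, in deposited TPM on an axis that is linear below 0.5 and logarithmic above, for HET cisplatin, HET PBS, WT cisplatin and WT PBS. Cxcl12 has the highest median in all groups, and Cxcl1 spans from under 1 to over 30 TPM among PBS kidneys.

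Under cisplatin, 11 of the 26 tested ligands rose and 5 fell in HET kidneys, while 12 rose and 7 fell in WT kidneys (edgeR quasi-likelihood test, Benjamini-Hochberg adjusted p under 0.05 over 19268 genes). The background was broad: 59% of all tested genes passed in HET (31% higher and 28% lower) and 63.2% in WT (33.6% higher and 29.6% lower). The counts of marker, pathway and receptor genes given below stand beside these same shares. The median log2 fold change of the tested ligands was 0.41 in HET and 0.44 in WT, against 0.06 over all tested genes in each, and the WT median was unchanged at 0.44 with Cxcl17 at its lower bound. The same 11 ligands rose in both genotypes and the same 5 fell in both. Ccl11 rose in WT and did not pass in HET, and Ccl5 and Cxcl11 fell in WT and did not pass in HET, while 7 passed in neither. The groups did not overlap for 4 of the 26 in HET, where 26% of all genes did not, and for 11 of the 26 in WT, where 31.8% did not. Scaling by library totals in place of TMM raised the median of all genes to 0.46 in HET and 0.45 in WT and gave 15 higher and 3 lower ligands in HET and 16 higher and 6 lower in WT. With that scaling 11992 of all 19268 genes were higher and 2400 lower in HET, and 11831 were higher and 2862 lower in WT. Restricted to the animals numbered in the 600s, a block that holds all HET cisplatin animals, 14 of 28 tested ligands rose and 5 fell in HET, and 13 rose and 7 fell in WT. In that block 5118 of all 19491 genes rose and 4740 fell in HET, and 5172 rose and 4771 fell in WT. Without the 5 libraries that go against their label, 9 of 28 rose and 6 fell in HET, and 13 rose and 8 fell in WT. There 5254 of all 19405 genes rose and 4883 fell in HET, and 6266 rose and 5558 fell in WT.

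**Figure D2:**
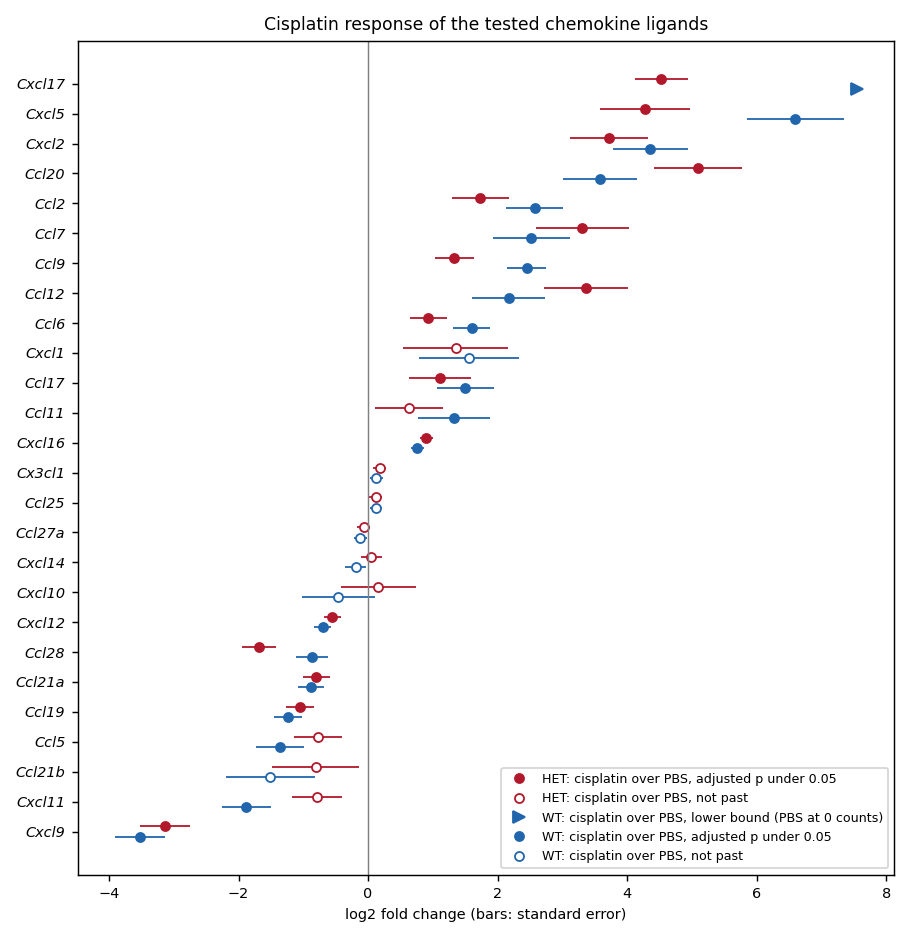
Log2 fold change of cisplatin over PBS with its standard error for the 26 tested ligands, HET above WT in each row, filled where the adjusted p is under 0.05. The arrow for Cxcl17 in WT is a lower bound, because all 8 WT PBS kidneys held 0 counts.

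The CXCR2 ligands Cxcl2 and Cxcl5 rose in both genotypes, and Cxcl1 was high under cisplatin but did not pass the test. Cxcl2 stood at 0.352 to 8.68 CPM (median 4.05) in HET cisplatin kidneys against 0 to 1.15 CPM (median 0.213) in HET PBS kidneys, and at 1.99 to 10.8 CPM (median 4.6) in WT cisplatin kidneys against 0.063 to 0.653 CPM (median 0.171) in WT PBS kidneys. The WT groups did not overlap, and in HET only the library labelled HET cisplatin 6 lay within the PBS range. The log2 fold change was 3.72 (SE 0.60, adjusted p = 3.48e-06, edgeR) in HET and 4.36 (SE 0.58, adjusted p = 1.12e-07, edgeR) in WT, and in HET it was 4.48 without HET PBS 2. Cxcl5, another CXCR2 ligand, held 173 counts over the HET cisplatin kidneys against 6 over the HET PBS kidneys, a ratio of 21.9 (95% counting interval 9.85 to 60.4, adjusted p = 3.8e-06, edgeR). Its log2 fold change there was 4.28, or 4.94 without HET PBS 1. In WT it held 299 counts under cisplatin against 2 under PBS, a ratio of 143 (39.2 to 1190), with an adjusted p of 4.48e-09 by edgeR, and both PBS counts came from the library labelled WT PBS 6, so that the other WT PBS kidneys held 0. Cxcl3 did not pass the low-count filter, and its counts were 62 in HET cisplatin against 1 in HET PBS and 55 in WT cisplatin against 2 in WT PBS, ratios of 47 (8.14 to 1890) and 26.3 (6.94 to 222). Counting intervals cover counting error only. Cxcl5, Cxcl3, Cxcl15, Cxcl1 and Cxcl2 lie in 1 cluster on chromosome 5 between bases 90759360 and 90905938 (GRCm38).

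Cxcl1, the mouse ligand also called KC, stood at 2.98 to 44 CPM (median 30.2) in HET cisplatin kidneys against 0.602 to 43.1 CPM (median 3.85) in HET PBS kidneys. In WT it stood at 8.79 to 72.5 CPM (median 35.4) under cisplatin against 0.441 to 44.4 CPM (median 1.66) under PBS. The groups overlapped in both genotypes: the highest HET PBS kidney lay just under the highest HET cisplatin kidney, while WT cisplatin 2 and 5 lay above every WT PBS kidney. The log2 fold change was 1.35 (SE 0.81, adjusted p = 0.152, edgeR) in HET and 1.56 (SE 0.77, adjusted p = 0.0784, edgeR) in WT. It passed by limma voom with quality weights, at 2.76 (adjusted p = 0.0025) in HET and 3.65 (adjusted p = 0.000189) in WT, and by limma on log2(TPM + 1), at 2.26 and 2.79. With library totals it passed in WT alone (1.99, adjusted p = 0.0218, edgeR). By edgeR it passed in HET without HET PBS 2 (2.30, adjusted p = 0.0215) and in WT without WT PBS 5 (2.24, adjusted p = 0.0162). Within the animals numbered in the 600s it was 4.11 (adjusted p = 0.000696, edgeR) in HET and 0.80 (adjusted p = 0.381, edgeR) in WT. The PBS kidneys of that block are HET PBS 4 to 7, at 0.602 to 3.85 CPM, and WT PBS 5 to 8. Of the latter, WT PBS 5 and 6 held 44.4 and 21.6 CPM. Within the block 0 genes passed for a difference in response between the genotypes.

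The PBS kidneys differed among themselves by animal number, a split chosen after their values were seen and given with no test. The 6 PBS kidneys with the lowest animal numbers (HET PBS 1, 2 and 3 and WT PBS 4, 5 and 6) held 12.1 to 44.4 CPM of Cxcl1, while the other 9 held 0.441 to 3.85 CPM. Both sets hold HET and WT animals. Cxcl10 stood at 9.66 to 48.2 CPM in the low-numbered set and at 1.53 to 9.7 CPM in the others. Cxcl2 stood at 0.213 to 1.15 CPM in the low-numbered set and at 0 to 0.243 CPM in the others, and Ccl2 at 0.319 to 1.69 CPM and at 0.0393 to 0.555 CPM in the same order. Cxcl12 did not split this way, at 146 to 177 CPM in the low-numbered set and 120 to 190 CPM in the others. The 10 neutrophil markers summed to 7.64 to 25.2 CPM in the low-numbered set and to 2.76 to 12.8 CPM in the others, while the 11 macrophage markers summed to 100 to 137 CPM and 103 to 120 CPM. Library totals overlapped. The part of these markers in the ligand values was not tested, and no source used here says what the animal numbers stand for.

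**Figure D3:**
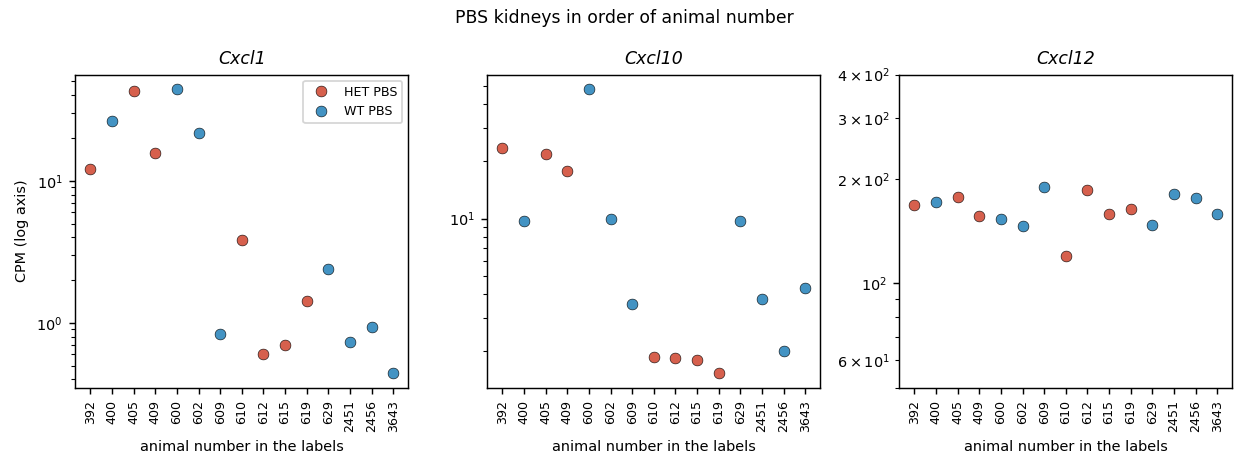
CPM (logarithmic axes) of Cxcl1, Cxcl10 and Cxcl12 in the 15 PBS kidneys, in order of the animal number in the labels, coloured by genotype. Cxcl1 is 12.1 CPM or more in the 6 lowest-numbered animals and 3.85 CPM or less in the other 9, in both genotypes, while Cxcl12 stays between 120 and 190 CPM.

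Markers of neutrophils, the cells that CXCR2 ligands attract, did not rise with these ligands. Of 10 neutrophil markers 6 were tested, of which 0 rose and 5 fell in HET and 0 rose and 1 fell in WT, and their part in the ligand levels was not tested. Their summed level was 3.74 to 6.82 CPM (median 6.31) in HET cisplatin kidneys against 3.17 to 25.2 CPM (median 9.7) in HET PBS kidneys, and 4.06 to 8.79 CPM (median 5.32) in WT cisplatin kidneys against 2.76 to 19.9 CPM (median 5.87) in WT PBS kidneys. The HET PBS sums followed the split by animal number in part. They were 25.2, 9.7 and 24 CPM in HET PBS 1, 2 and 3, in that order. In HET PBS 4 to 7 they were 10.6, 3.17, 3.71 and 7.59 CPM, and the HET cisplatin range lay within these. The part of that split in the markers called lower in HET was not tested. Of the 10 genes, 0 held no counts in HET cisplatin, 3 in HET PBS, 2 in WT cisplatin and 3 in WT PBS. The receptor gene Cxcr2 itself did not pass, with a log2 fold change of -0.06 (SE 0.17) in HET and 0.30 (SE 0.17) in WT. Over all tested genes 31% rose in HET and 33.6% in WT. Of 18 genes of the NF-kB pathway and its early targets 17 were tested, and 11 rose and 0 fell in HET while 12 rose and 0 fell in WT. Among them were Relb, an NF-kB subunit, with a log2 fold change of 1.5 in HET and 1.25 in WT, Nfkb2, with 1.21 and 1.12, and Icam1, an adhesion molecule for leukocytes, with 1.55 and 1.45. The inhibitor gene Nfkbia did not pass in either.

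The CCR2 ligands, which draw monocytes out of blood, rose together: Ccl2, Ccl7 and Ccl12 each passed in both genotypes, and Ccl8 was not tested. They lie in 1 cluster on the plus strand of chromosome 11 (GRCm38), with Ccl2 at bases 82035571 to 82037453, Ccl12 at 82101845 to 82103400 and, between them, Ccl11, which did not pass in HET, at 82057823 to 82062955. Ccl2 stood at 0.384 to 2.68 CPM (median 1.68) in HET cisplatin kidneys against 0.0393 to 1.69 CPM (median 0.319) in HET PBS kidneys, and at 0.943 to 3.2 CPM (median 2.29) in WT cisplatin kidneys against 0.188 to 0.67 CPM (median 0.264) in WT PBS kidneys. The WT groups did not overlap. Its log2 fold change was 1.73 (SE 0.44, adjusted p = 0.00108, edgeR) in HET, or 2.44 without HET PBS 2, and 2.57 (SE 0.43, adjusted p = 5.49e-06, edgeR) in WT. Ccl12, a mouse ligand of CCR2, changed by 3.37 on the log2 scale (adjusted p = 4.59e-05, edgeR) in HET, or 2.72 without HET cisplatin 2, and of 2.17 (adjusted p = 0.00113, edgeR) in WT. Ccl7 had a log2 fold change of 3.31 in HET and 2.52 in WT, and it held 0 counts in the library labelled HET cisplatin 6 and in 4 of 7 HET PBS kidneys. Ccl8 held 27 counts in HET cisplatin against 31 in HET PBS and 51 in WT cisplatin against 23 in WT PBS. The receptor gene Ccr2 did not pass, with a log2 fold change of 0.01 (SE 0.29) in HET and 0.28 (SE 0.28) in WT.

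**Figure D4:**
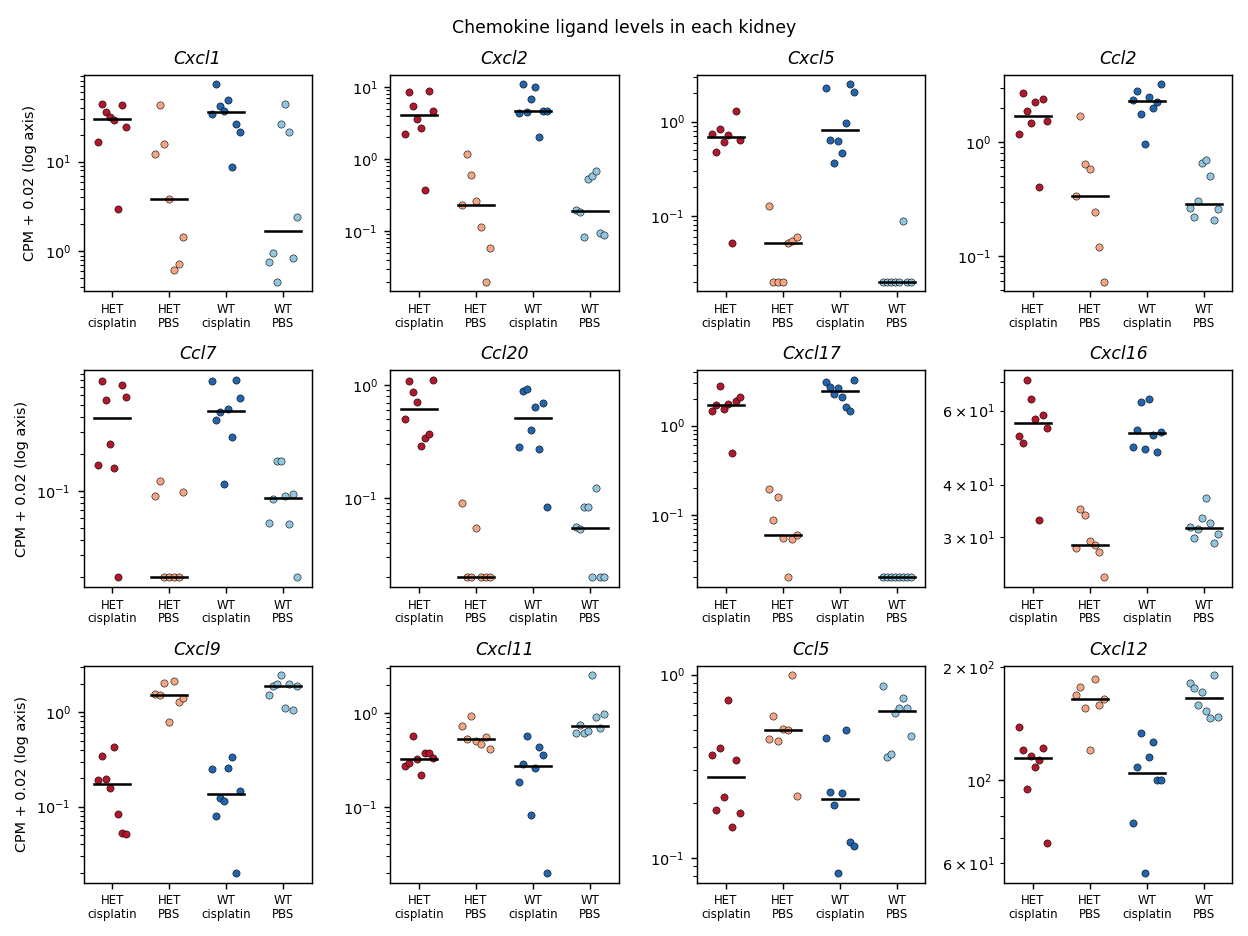
CPM plus 0.02 (logarithmic axes) of 12 ligands in each of the 31 kidneys, in the order HET cisplatin, HET PBS, WT cisplatin and WT PBS, with the group median as a line. The medians of Cxcl2, Cxcl5, Ccl2 and Cxcl17 are higher and that of Cxcl9 is lower under cisplatin in both genotypes. PBS kidneys reach into the cisplatin range for Cxcl1 in both genotypes and for others, such as Cxcl2, Cxcl5 and Ccl2 in HET.

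Ccl6 and Ccl9, mouse ligands of CCR1, rose in both genotypes. Ccl9 stood at 1.76 to 10.5 CPM (median 5.14) in HET cisplatin kidneys against 1.2 to 3.54 CPM (median 2.23) in HET PBS kidneys, and at 3.32 to 12.2 CPM (median 6.2) in WT cisplatin kidneys against 0.732 to 1.54 CPM (median 1.18) in WT PBS kidneys. The WT groups did not overlap and the HET groups did. Its log2 fold change was 1.33 (SE 0.30, adjusted p = 0.000328, edgeR) in HET and 2.45 (SE 0.31, adjusted p = 2.85e-08, edgeR) in WT, and 96.8% of its deposited counts were not whole numbers. For Ccl6 the log2 change was 0.93 (SE 0.29, adjusted p = 0.00669, edgeR) in HET and 1.60 (SE 0.28, adjusted p = 1.08e-05, edgeR) in WT. Without the 5 libraries that go against their label it was 0.76 (adjusted p = 0.0716, edgeR) in HET. Their receptor gene Ccr1 rose as well, with a log2 fold change of 2.56 (SE 0.30) in HET and 3.47 (SE 0.30) in WT. Ccl3 and Ccl4, attractants of macrophages and T cells that were not tested, held 17 counts in HET cisplatin against 8 in HET PBS and 22 in WT cisplatin against 20 in WT PBS for Ccl3, and 13 against 39 and 15 against 40 for Ccl4.

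Macrophage markers moved with these ligands. Of 11 tested markers 7 rose and 1 fell in HET, and 9 rose and 1 fell in WT. They summed to 50.3 to 224 CPM (median 172) in HET cisplatin kidneys against 103 to 137 CPM (median 117) in HET PBS kidneys, and to 132 to 318 CPM (median 205) in WT cisplatin kidneys against 100 to 124 CPM (median 108) in WT PBS kidneys. The lowest sum was that of the library labelled HET cisplatin 6, which also held the lowest level of its group for 10 of the 11 ligands that rose in HET. That library was the lowest of its group for injured tubule markers (2500 CPM) and fibroblast and pericyte markers (195 CPM) too. WT cisplatin 6 held the lowest level for 4 of the 12 ligands that rose in WT, and its macrophage sum was 206 CPM. Without HET cisplatin 6 and WT cisplatin 6 together, a choice made after their values were seen, 12 ligands rose and 5 fell in HET, and 14 rose and 8 fell in WT. In that fit 6203 of all 19223 genes rose and 5628 fell in HET, and 6643 rose and 5878 fell in WT. The part of macrophage number in the ligand levels was not tested.

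**Figure D5:**
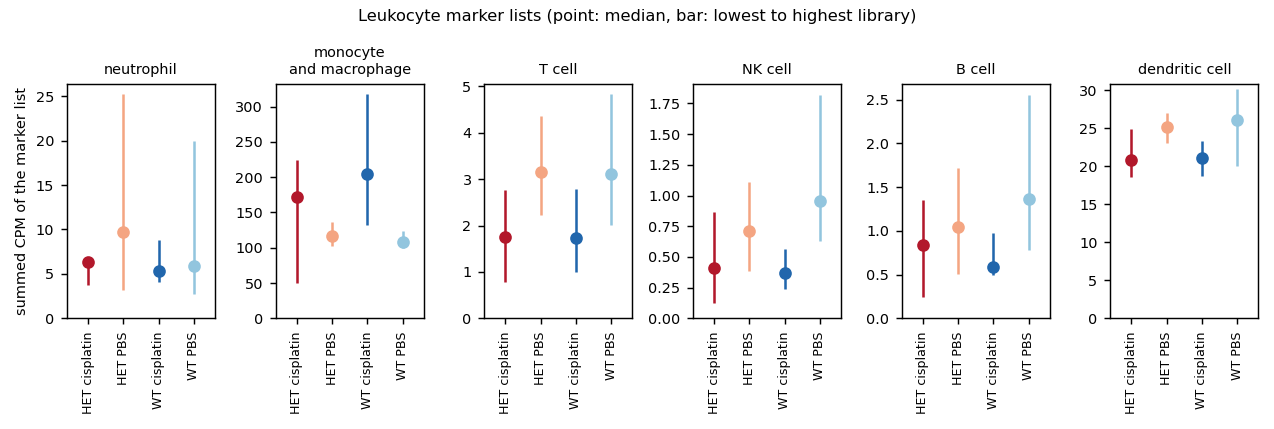
Summed CPM of 6 leukocyte marker lists, as the group median (point) with the lowest and highest library (bar), on axes that start at 0, in the order HET cisplatin, HET PBS, WT cisplatin and WT PBS. Macrophage medians are higher under cisplatin (172 against 117 CPM in HET, 205 against 108 CPM in WT), and T cell medians are lower (1.76 against 3.15 CPM in HET, 1.73 against 3.11 CPM in WT).

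The CXCR3 ligands, which are induced by interferon gamma and attract activated T cells, did not move as a group. Cxcl9 stood at 0.0311 to 0.403 CPM (median 0.155) in HET cisplatin kidneys against 0.764 to 2.12 CPM (median 1.49) in HET PBS kidneys, and at 0 to 0.316 CPM (median 0.116) in WT cisplatin kidneys against 1.02 to 2.42 CPM (median 1.87) in WT PBS kidneys. Every cisplatin kidney lay below every PBS kidney of its genotype. Cxcl9 fell by 3.14 on the log2 scale (SE 0.38, adjusted p = 2.7e-08, edgeR) in HET and by 3.52 (SE 0.39, adjusted p = 2.63e-09, edgeR) in WT. Of the deposited Cxcl9 counts, 35.5% were not whole numbers. Cxcl10, its neighbour on the same strand of chromosome 5, stood at 6.08 to 16 CPM (median 11) in HET cisplatin kidneys against 1.53 to 23.4 CPM (median 1.87) in HET PBS kidneys, and at 3.08 to 12.7 CPM (median 8.58) in WT cisplatin kidneys against 2 to 48.2 CPM (median 6.99) in WT PBS kidneys. The groups overlapped, and the log2 fold change did not pass, at 0.16 (SE 0.58) in HET and -0.46 (SE 0.56) in WT, and it changed sign in WT without WT PBS 5 (0.43). Within the 600s it was 2.66 (adjusted p = 0.000255, edgeR) in HET and -1.07 (adjusted p = 0.0541, edgeR) in WT. There HET PBS 4 to 7 held 1.53 to 1.87 CPM, and WT PBS 5 to 8 held 3.54 to 48.2 CPM. Cxcl11, which the GENCODE M21 annotation lists as a polymorphic pseudogene, stood at 0 to 0.556 CPM (median 0.253) in WT cisplatin kidneys against 0.597 to 2.5 CPM (median 0.705) in WT PBS kidneys, and the groups did not overlap. It fell by 1.88 on the log2 scale (SE 0.38, adjusted p = 7.81e-05, edgeR) in WT and stood at -0.79 on that scale (SE 0.39, adjusted p = 0.0803, edgeR) in HET, where it passed without HET cisplatin 3 (-0.95, adjusted p = 0.0468). Exons of Cxcl10 overlap those of Art3 on the other strand, and since no source used here states a strand setting, reads of the pair cannot be told apart.

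T cell markers were lower too: of 7 markers 5 were tested, and 4 fell in each genotype. They summed to 0.777 to 2.76 CPM (median 1.76) in HET cisplatin kidneys against 2.22 to 4.36 CPM (median 3.15) in HET PBS kidneys, and to 1.01 to 2.78 CPM (median 1.73) in WT cisplatin kidneys against 2.01 to 4.84 CPM (median 3.11) in WT PBS kidneys. Ifng, the gene of interferon gamma, was too low to test, with 2 counts over the HET cisplatin kidneys against 1 over the HET PBS kidneys and 0 over the WT cisplatin kidneys against 7 over the WT PBS kidneys. Of 11 interferon genes 9 were tested, of which 7 rose and 0 fell in HET and 3 rose and 1 fell in WT. The part of these markers in the CXCR3 ligand levels was not tested.

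Ccl5, a ligand that T and NK cells make, stood at 0.128 to 0.706 CPM (median 0.257) in HET cisplatin kidneys against 0.197 to 0.968 CPM (median 0.475) in HET PBS kidneys, and at 0.0629 to 0.475 CPM (median 0.189) in WT cisplatin kidneys against 0.333 to 0.842 CPM (median 0.616) in WT PBS kidneys. The groups overlapped in both. It fell by 1.36 on the log2 scale (SE 0.37, adjusted p = 0.00193, edgeR) in WT, and in HET the log2 fold change was -0.77 (SE 0.37, adjusted p = 0.0723, edgeR), or -1.07 (adjusted p = 0.0126, edgeR) without HET cisplatin 5 and -0.91 (adjusted p = 0.0367, edgeR) without HET PBS 7. Xcl1, an attractant of cross-presenting dendritic cells made by T and NK cells, was not tested and held 1 count over the HET cisplatin kidneys against 10 over the HET PBS kidneys, and 2 over the WT cisplatin kidneys against 15 over the WT PBS kidneys. Its receptor gene Xcr1 fell by 1.71 (SE 0.27) in HET and by 1.46 (SE 0.26) in WT on the log2 scale.

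Of the CCR7 ligands, which guide dendritic cells and naive T cells to lymphoid tissue, Ccl19 and Ccl21a fell in both genotypes and the tested copy of Ccl21b did not pass (-0.81 in HET and -1.51 in WT, adjusted p = 0.306 and 0.0565, edgeR). Ccl21b passed in WT without any 1 of 5 libraries, WT cisplatin 7 and WT PBS 4 and 7 among them, with adjusted p of 0.023 to 0.0448. Ccl19 stood at 0.384 to 1.44 CPM (median 0.791) in HET cisplatin kidneys against 1.25 to 2.43 CPM (median 1.9) in HET PBS kidneys, and at 0.535 to 1.14 CPM (median 0.764) in WT cisplatin kidneys against 1.3 to 2.64 CPM (median 1.85) in WT PBS kidneys. The WT groups did not overlap. It fell by 1.05 (SE 0.22, adjusted p = 0.000137, edgeR) in HET and by 1.23 (SE 0.22, adjusted p = 1.11e-05, edgeR) in WT on the log2 scale. Of the deposited counts of this Ccl19 row, 93.5% were not whole numbers. Ccl21a fell by 0.80 (SE 0.21, adjusted p = 0.00129, edgeR) in HET and by 0.88 (SE 0.20, adjusted p = 0.000355, edgeR) in WT, and the call in HET was lost with library totals (-0.39, adjusted p = 0.0849). Ccl21 has near-identical copies among which reads cannot be assigned with certainty: 100% of the Ccl21a counts were fractional before rounding, and the 86 counts of Ccl21d all came from 1 of the 31 libraries. Summed over the 7 Ccl21 rows, a sum chosen after the rows were seen, the level was 0.746 to 4.17 CPM (median 3.38) in HET cisplatin kidneys against 3.75 to 6.96 CPM (median 5.48) in HET PBS kidneys, and 1.02 to 3.86 CPM (median 1.99) in WT cisplatin kidneys against 3.58 to 6.49 CPM (median 5.18) in WT PBS kidneys. Of 6 dendritic cell markers, 5 fell in each genotype, and they summed to 18.6 to 24.9 CPM in HET cisplatin kidneys against 23.1 to 27 CPM in HET PBS kidneys and to 18.7 to 23.4 CPM in WT cisplatin kidneys against 20 to 30.2 CPM in WT PBS kidneys. Markers of lymphatic endothelium did not fall as a sum. They stood at 43.6 to 57.3 CPM (median 50.3) in HET cisplatin kidneys against 40.1 to 55.1 CPM (median 44.8) in HET PBS kidneys. In WT they stood at 43.8 to 57.7 CPM (median 52.5) under cisplatin against 40.7 to 50.9 CPM (median 48.3) under PBS. The part of either list in the ligand levels was not tested.

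Ligands of epithelium did not share a direction. Ccl20, the ligand of CCR6, stood at 0.269 to 1.09 CPM (median 0.59) in HET cisplatin kidneys against 0 to 0.071 CPM (median 0) in HET PBS kidneys, and the groups did not overlap. In WT it stood at 0.0641 to 0.903 CPM (median 0.495) under cisplatin against 0 to 0.103 CPM (median 0.0342) under PBS, and the groups overlapped. It held 174 counts over the HET cisplatin kidneys against 3 over the HET PBS kidneys, a ratio of 44 (14.8 to 215), with an adjusted p of 1.36e-07 by edgeR and a log2 fold change of 5.09, or 6.04 without HET PBS 1. In WT it held 123 counts against 9, a ratio of 13.1 (6.66 to 29.2), with an adjusted p of 2.12e-06 by edgeR. Ccl28, a mucosal ligand of CCR10, stood at 4.71 to 13.7 CPM (median 8.87) in HET cisplatin kidneys against 20.2 to 46.2 CPM (median 27.1) in HET PBS kidneys, without overlap. In WT it stood at 8.53 to 20.8 CPM (median 14) under cisplatin against 13.3 to 51 CPM (median 22.1) under PBS. It fell by 1.68 (SE 0.26, adjusted p = 1.87e-06, edgeR) in HET and by 0.87 (SE 0.25, adjusted p = 0.00309, edgeR) in WT on the log2 scale, and the WT call was lost with library totals (-0.49, adjusted p = 0.0837). Ccl25, the ligand of CCR9, and Ccl27a, the ligand of CCR10 known from skin, did not pass in either genotype, with log2 fold changes of 0.12 and -0.07 in HET and 0.12 and -0.12 in WT, and with library totals Ccl25 passed as higher in both and Ccl27a changed sign, to 0.34 in HET and 0.27 in WT. Exons of Ccl25 and Ccl27a overlap genes on the other strand.

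Among the remaining CXC ligands, Cxcl17, a mucosal chemoattractant, was near absent from PBS kidneys. It stood at 0.48 to 2.74 CPM (median 1.7) in HET cisplatin kidneys against 0 to 0.177 CPM (median 0.0393) in HET PBS kidneys, a ratio of 24.6 (14.5 to 45.4) of 454 over 14 counts (adjusted p = 1.14e-09, edgeR). In WT it stood at 1.46 to 3.24 CPM (median 2.45) under cisplatin, with 589 counts in all, against 0 counts in all 8 PBS kidneys, at least 188-fold higher against a floor of 3 counts over the group (adjusted p = 1.94e-12, edgeR). Every cisplatin kidney lay above every PBS kidney of its genotype. Cxcl16, a membrane-bound ligand of CXCR6 that injured tubule cells are known to make, stood at 32.9 to 70.9 CPM (median 55.9) in HET cisplatin kidneys against 24.1 to 35 CPM (median 28.7) in HET PBS kidneys, and at 47.7 to 63.8 CPM (median 52.9) in WT cisplatin kidneys against 29 to 37.1 CPM (median 31.5) in WT PBS kidneys. On the log2 scale it rose by 0.90 (SE 0.11, adjusted p = 1.16e-08, edgeR) in HET and 0.76 (SE 0.10, adjusted p = 9.28e-08, edgeR) in WT, and the 1 HET cisplatin kidney inside the PBS range was that labelled HET cisplatin 6. Its receptor gene Cxcr6 fell by 2.46 (SE 0.49) in HET and by 2.55 (SE 0.47) in WT on the log2 scale. Exons of Cxcl16 overlap those of Zmynd15 on the other strand, whose level was 0.79 to 2.75 TPM in HET cisplatin against 0.55 to 1.24 TPM in HET PBS, and 1.24 to 3.36 TPM in WT cisplatin against 0.68 to 1.16 TPM in WT PBS.

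Cxcl12 stood at 67.7 to 138 CPM (median 114) in HET cisplatin kidneys against 120 to 186 CPM (median 164) in HET PBS kidneys, and at 56.5 to 133 CPM (median 104) in WT cisplatin kidneys against 146 to 190 CPM (median 165) in WT PBS kidneys. It fell by 0.55 (SE 0.14, adjusted p = 0.000803, edgeR) in HET and by 0.70 (SE 0.13, adjusted p = 2.96e-05, edgeR) in WT on the log2 scale, and the HET call was lost with library totals (-0.15, adjusted p = 0.316). Its receptor gene Cxcr4 did not pass, and the atypical receptor gene Ackr3, whose protein clears CXCL12, fell by 0.50 (SE 0.18) in HET and by 0.43 (SE 0.18) in WT. Markers of endothelium, a known source of CXCL12, summed to 206 to 230 CPM in HET cisplatin kidneys against 300 to 351 CPM in HET PBS kidneys, and to 194 to 232 CPM in WT cisplatin kidneys against 309 to 361 CPM in WT PBS kidneys. Fibroblast and pericyte markers went the other way. They summed to 195 to 437 CPM (median 326) in HET cisplatin kidneys against 159 to 218 CPM (median 192) in HET PBS kidneys. In WT they summed to 252 to 385 CPM (median 284) under cisplatin against 138 to 213 CPM (median 176) under PBS. The part of either list in the Cxcl12 level was not tested. Cx3cl1 did not pass, at 70.1 to 134 CPM (median 104) in HET cisplatin kidneys against 80.7 to 99.8 CPM (median 90.4) in HET PBS kidneys, and at 83.8 to 111 CPM (median 93.8) in WT cisplatin kidneys against 69.4 to 115 CPM (median 81.3) in WT PBS kidneys. With library totals it passed as higher, at 0.59 in HET and 0.52 in WT, and without HET cisplatin 6 it passed in HET (0.24, adjusted p = 0.0295, edgeR). Its receptor gene Cx3cr1 rose by 1.27 on the log2 scale (SE 0.33) in HET and 1.17 (SE 0.31) in WT. Cxcl14, a homeostatic ligand of epithelium, did not pass in either genotype, at 0.05 in HET and -0.19 in WT. Cxcl13, the B cell attractant of CXCR5, was not tested and held 66 counts in HET cisplatin against 23 in HET PBS and 52 in WT cisplatin against 14 in WT PBS.

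Ccl17 and Ccl22, both ligands of CCR4 made by dendritic cells and macrophages, differed in direction. Ccl17 stood at 0.032 to 0.435 CPM (median 0.293) in HET cisplatin kidneys against 0 to 0.372 CPM (median 0.071) in HET PBS kidneys, and at 0.221 to 0.705 CPM (median 0.351) in WT cisplatin kidneys against 0.0315 to 0.233 CPM (median 0.139) in WT PBS kidneys. Its log2 fold change was 1.11 (SE 0.47, adjusted p = 0.0455, edgeR) in HET and 1.5 (SE 0.44, adjusted p = 0.00372, edgeR) in WT. The HET call was lost without any 1 of HET cisplatin 2, 3, 4, 5 and 8 and HET PBS 1, 3, 4, 5 and 7, with adjusted p between 0.00517 and 0.101 over all single omissions, and without the 5 libraries that go against their label (adjusted p = 0.134). Ccl22 was not tested and held 16 counts in HET cisplatin against 61 in HET PBS, a ratio of 0.199 (0.107 to 0.35), and 12 in WT cisplatin against 74 in WT PBS, a ratio of 0.155 (0.0766 to 0.287). Ccl11, an eosinophil attractant of CCR3, changed by 0.63 on the log2 scale (SE 0.52, adjusted p = 0.304, edgeR) in HET and of 1.33 (SE 0.55, adjusted p = 0.0371, edgeR) in WT, where it was lost without any 1 of WT cisplatin 2, 5 and 7 and WT PBS 4 to 8, with adjusted p between 0.0172 and 0.101 over all single omissions. Ccl24, of the same receptor, was not tested and held 19 counts in HET cisplatin against 4 in HET PBS and 21 in WT cisplatin against 6 in WT PBS.

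Of the 20 ligand rows not tested, 9 held at most 3 counts in every group, Ccl1 and Ccl26 among them. The other 11 held 10 or more counts in at least 1 group, of which Cxcl3, Ccl22, Ccl24, Ccl3, Ccl4, Ccl8, Cxcl13, Xcl1 and Ccl21d have been given above. Cxcl15, a CXC ligand of the CXCR2 family known in mouse lung, held 17 counts in HET cisplatin against 0 in HET PBS, at least 4.3-fold higher, and 20 in WT cisplatin against 2 in WT PBS. The last, a second Ccl21b row, held its 37 counts in 1 HET PBS kidney. Without the low-count filter, 4 of these ligands passed in both genotypes by edgeR and also by DESeq2. Cxcl3 was higher, with adjusted p of 1.03e-05 in HET and 1.09e-05 in WT by edgeR, and so was Cxcl15, with 0.00142 and 0.00788. Ccl22 was lower, with adjusted p of 0.00722 in HET and 0.00232 in WT by edgeR, and so was Xcl1, with 0.0128 and 0.0178. Cxcl13 was higher in WT alone (adjusted p = 0.0279 by edgeR without the filter, against 0.184 in HET). Ccl3, Ccl8 and Ccl24 did not pass by either tool, and Ccl4 passed in HET by DESeq2 alone (adjusted p = 0.0452). The Ccl21d and second Ccl21b copies, each with counts in 1 library, passed by edgeR in the genotype of that library and had no adjusted p from DESeq2.

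Of 19 chemokine receptor genes 9 were tested. In HET 2 rose (Ccr1 and Cx3cr1), 2 fell (Cxcr6 and Xcr1) and 5 did not pass, and in WT 3 rose (Ccr1 and Cx3cr1 among them), 3 fell (Cxcr6, Xcr1 and Ccrl2) and 3 did not pass. Over all tested genes 59% passed in HET and 63.2% in WT. Of 4 atypical receptors, which bind chemokines without signalling for migration, 3 were tested in each genotype. Ackr4, which takes up CCR7 ligands and Ccl25, rose by 2.57 on the log2 scale (SE 0.38, adjusted p = 9.56e-07, edgeR) in HET and 1.77 (SE 0.37, adjusted p = 0.000113, edgeR) in WT. The receptors of Ccl20 and of the CCR7 ligands were not tested: Ccr6 held 0 counts in HET cisplatin against 8 in HET PBS and 0 in WT cisplatin against 11 in WT PBS, and Ccr7 held 24 against 86 and 24 against 80.

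No ligand passed between the genotypes. Of the 26 tested ligands 0 passed for HET against WT under PBS (0% of all genes passed), 0 under cisplatin (0.00519%) and 0 for the interaction, which is the cisplatin response in HET minus that in WT (0%, edgeR). At an unadjusted p under 0.05 stood 2, 2 and 3 ligands, where 5.02%, 5.53% and 5.6% of all genes did. DESeq2, limma voom and limma on log2(TPM + 1) also called 0 ligands in each, as did edgeR without the 5 libraries that go against their label. Ccl9 was among the ligands with the smallest p: its difference in response was -1.12 (SE 0.42, adjusted p = 0.731, edgeR). For Ccl28 the difference was -0.81 (SE 0.36, adjusted p = 0.853, edgeR). Cxcl17, with counts in 6 of 7 HET PBS kidneys and in 0 of 8 WT PBS kidneys, had an adjusted p of 0.532 between the genotypes under PBS and of 0.725 for the interaction by edgeR. A p that misses the threshold does not show that the genotypes respond alike, and the cisplatin calls that Ccl11, Ccl5 and Cxcl11 reached in WT alone are not shown to differ by genotype, with adjusted p for the interaction of 0.941, 0.941 and 0.901 by edgeR, in that order.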

How the data were processed

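The deposited table holds expected counts, TPM and FPKM for every gene in each of 31 kidney libraries. The expected counts were made by the authors, whose processing notes name fastp, STAR, featureCounts, GRCm38 and mm10 without versions; 12.5% of them were not whole, and they were rounded. TPM was computed by the authors and used as deposited for levels between genes. FPKM, also deposited by the authors, was a constant multiple of TPM in each library and was not used. RNA came from NucleoMag extraction with a KAPA mRNA HyperPrep kit, per the labels' protocols.

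Counts were fitted with edgeR 4.0.16 (TMM, filterByExpr by group, prior count 0.125, quasi-likelihood F test) over 4 group means, with Benjamini-Hochberg adjustment over 19268 of 55487 genes at 0.05. CPM divides counts by TMM-scaled totals. Alternatives were DESeq2 1.42.0, limma 3.58.1 (voom with quality weights, or log2(TPM + 1)), library totals in place of TMM, other low-count filters, the compared groups alone, the animal number block, and leaving out libraries. Dropping HET cisplatin 6 and WT cisplatin 6 together was chosen after seeing the data. Ratios of summed counts have exact 95% intervals for counting error only. Every member was to be named, in full where it passed a cisplatin test with a mean of at least 0.5 CPM in a group. Members and lists were chosen with earlier results of these data known. Positions are from GENCODE M21 and promoters from RefSeq GRCm38.p6; scripts were tested on simulated data in R 4.3.3. Replicate libraries differed by more than counting noise, so none was counted as a repeat.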

Additional observations from a re-analysis of the deposited data

Results flagged for a closer look

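Of 64 groups of libraries, for 16 ligands in 4 groups each, 9 held a library far from the others of its group. The rule is set to mark about 1 group in 20 by chance, a rate not checked for these CPM values. The library marked was the highest of its group in all 9, so no excess over chance is claimed. Ccl12 stood at 1.92 CPM in HET cisplatin 2, where the next library held 0.608 CPM. Ccl2 stood at 1.69 CPM in HET PBS 2, with the next at 0.624 CPM. Ccl5 stood at 0.706 CPM in HET cisplatin 5, with the next at 0.379 CPM. The library WT cisplatin 1 was high for both CCR1 ligands, at 22.17 CPM of Ccl6 (next 8.64 CPM) and 12.2 CPM of Ccl9 (next 7.39 CPM). Cxcl11 stood at 2.5 CPM in WT PBS 5 (next 0.956 CPM) and at 0.554 CPM in HET cisplatin 3 (next 0.352 CPM). Cxcl5 stood at 0.0687 CPM in WT PBS 6, where the other 7 libraries held 0, and at 0.106 CPM in HET PBS 1 (next 0.0393 CPM), levels of 2 and 3 counts.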

How the results depend on the processing

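No paired analysis was possible because every animal has its own number and none is shared between groups. In HET, the 11 ligands higher under cisplatin became 17 by limma on log2(TPM + 1) and 6 with the stricter filter, and the 5 lower became 8 by DESeq2, 8 without a filter, and 3 with TPM and 3 with library totals. Calls over all genes in HET moved as well. With TPM 12321 of 19268 genes were higher and 1983 lower, and with the stricter filter 5598 of 16397 were higher. Lower were 5857 of 34823 genes by DESeq2, 5674 of 34823 without a filter and 2400 of 19268 with library totals. In WT, the 12 higher became 6 with the stricter filter and 7 with the compared groups alone. Among all genes in WT, 5988 of 16397 were higher with the stricter filter and 6258 of 17948 with the compared groups alone. Of 12 tested receptors, those lower in WT were 4, but 7 by DESeq2, 2 with TPM, 8 without a filter and 2 with the stricter filter, and those lower in HET were 3, but 5 without a filter and 1 with the stricter filter. Among all genes, 6270 of 34823 were lower in WT by DESeq2 and 2439 of 19268 with TPM. Without a filter 6132 of 34823 were lower in WT, and with the stricter filter 5251 of 16397 in WT and 4981 in HET. Leaving out single libraries gave 10 to 12 higher and 5 to 6 lower ligands in HET and 11 to 13 higher and 7 to 8 lower in WT. The calls between genotypes remained at 0 ligands. The stricter filter tested 18 ligands; the cause of the other changes was not tested.

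Signs changed for ligands that did not pass by edgeR. In WT, Cxcl14 was 0.20 with TPM and 0.20 with library totals, Ccl27a was 0.64 and 0.27, and Cxcl10 was 0.39 by voom, 0.47 with TPM and between -0.62 and 0.43 without single libraries. In HET, Ccl27a was 0.53 with TPM and 0.34 with library totals, Ccl21b was 0.05 by voom, Ccl11 was -0.16 without the 5 libraries that go against their label, Ccl25 was -0.02 within the 600s, and Cxcl14 was -0.02 with the number block as covariate. Without single libraries, Cxcl14 in HET lay between -0.04 and 0.17 and Cxcl10 in HET between -0.03 and 0.52. Ligands under about 1 CPM rest on few counts.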
